A study of Homo sapiens with 6 samples.

Results

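Metallothioneins are small, cysteine-rich proteins that bind zinc and copper. The genes described here were MT1E, MT1F, MT1G, MT1M, MT1X and MT2A of this family, with MTF1, SLC30A1 and SLC39A10. They were found by symbol in the deposited count matrix and made up 9 of its 57773 genes. The data came from SW872, an established human liposarcoma cell line. The Apatinib group held 3 samples incubated with 18 μM Apatinib, an inhibitor of the VEGFR-2 tyrosine kinase, for 24 h, and the control group held 3 samples whose treatment is labelled as none. The protocol text of the control samples names Apatinib as well, in the same words as that of the treated samples, and the groups follow the treatment label. All 6 samples came from this single line, grown in RPMI-1640 with fetal bovine serum, and mRNA was sequenced. The question was how these genes differed between the Apatinib group and the control group.

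Metallothioneins store zinc and buffer its free level in the cell. MTF1 is a zinc-sensing transcription factor, which binds short metal response elements and raises the transcription of metallothionein genes and of SLC30A1. SLC30A1 carries zinc out through the plasma membrane, whereas SLC39A10 carries zinc into the cell. The transcripts of MT1X, MT2A and SLC30A1 are therefore widely used as a readout of zinc in cells, and metallothionein genes also respond to copper, cadmium and glucocorticoids.

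The total counts were 18081919, 17275850 and 17352210 in Apatinib 1, 2 and 3, and 17043314, 18139437 and 22067558 in control 1, 2 and 3. Control 3 was the deepest sample. The libraries of a group were not equally alike: between control 1 and control 2 the chi-square per gene averaged 2.27, and between the other pairs within a group it ran from 18.2 to 44.5. Across the groups, it ran from 26.5 (Apatinib 3 and control 3) to 78.4 (Apatinib 1 and control 2). Some pairs across the groups were thus more alike than Apatinib 1 and Apatinib 2 (44.5). Control 1 and control 2 were kept as 2 samples, since the study calls its samples biological replicates. This measure does not show whether they came from separate cultures, and the 3 control samples count as 3 only if they did. For each gene named as called, the edgeR FDR with both summed is given as the summed-control FDR. Mitochondrial transcripts took 5.69%, 5.16% and 5.50% of the counts in the Apatinib group, and 4.47%, 4.71% and 5.11% in the control group. This share was higher in every Apatinib sample than in any control sample, and its part in the results was not tested.

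The cell line label was compared with marker genes. The 8 mesenchymal markers summed to 7758, 7543 and 6677 CPM (counts scaled to the library size, which edgeR corrects by TMM factors) in the Apatinib group against 5746, 5700 and 6130 CPM in the control group, with FN1 as the most abundant. FN1, SPARC and VIM were plentiful in all samples, with means of 3811, 1543 and 896 CPM over the 6 samples. THY1 and COL3A1 were low, with means of 4.90 and 6.75 CPM. COL3A1 was the only 1 of these 8 genes that was called, beside 11.5% of all genes tested, as higher with Apatinib (log2 fold change 1.18, edgeR FDR = 0.00955, summed-control FDR = 0.0423). FN1 was at 4382 ± 493 CPM in the Apatinib group against 3239 ± 24.1 CPM in the control group (mean ± SD, n = 3). For FN1 and COL1A2, the edgeR FDR was 0.0473 and 0.0394. Their log2 fold changes of 0.44 and 0.46 were below the limit of 0.5 for a call. Among the 6 adipocyte markers, PPARG stood at 55.2 ± 7.84 CPM in the Apatinib group against 51.0 ± 0.900 CPM in the control group (mean ± SD, n = 3), whereas FABP4, ADIPOQ and CEBPA had 0 counts in all samples. FABP4 and ADIPOQ were at 0 FPKM too, while CEBPA was listed with 0.058 to 0.319 FPKM, so its units disagreed. PLIN1 was low, with 20, 30 and 21 counts in Apatinib 1, 2 and 3, and 14, 17 and 20 in control 1, 2 and 3. It was not called (log2 fold change 0.60, edgeR FDR = 0.225). LEP had 2 counts in Apatinib 1 and 0 in the other samples. The summed adipocyte markers ran from 51.1 to 65.9 CPM over the 6 samples. PTPRC, which marks leukocytes, was at 0 counts in all samples, and the 4 leukocyte markers summed to at most 5.44 CPM, with CD14 as the most abundant. Of the 4 epithelial markers, EPCAM and CDH1 had 7 counts or fewer, KRT18 was the most abundant, and KRT8 rose by 0.71 on the log2 scale (edgeR FDR = 0.0166, summed-control FDR = 0.0886). The epithelial sum was 155, 132 and 123 CPM in the Apatinib group against 92.8, 101 and 108 CPM in the control group. The 3 endothelial markers summed to between 2.71 and 4.41 CPM, and both that were tested were called at these low levels, beside 11.5% of all genes. The marker with the most CPM was CDH5 in all control samples and VWF in all Apatinib samples, with no scaling for length. CDH5 fell by 1.22 on the log2 scale (edgeR FDR = 0.0242, summed-control FDR = 0.0719) and VWF rose by 1.52 (edgeR FDR = 0.0386, summed-control FDR = 0.121). The part of these marker changes in the results below was not tested.

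Across all genes, 16290 had enough counts to be tested with edgeR. To be called a DEG, a gene needed an FDR (the Benjamini-Hochberg adjusted p over all genes tested) below 0.05 together with a fold change beyond 0.5 on the log2 scale, up or down. This was met by 1866 genes, or 11.5%. The number depended on single samples, with 292 genes called when control 1 and control 2 were summed, 275 without control replicate 1, 300 without control replicate 2 and 795 without Apatinib replicate 1, so that all shares of 11.5% below hold for the fit with all 6 samples only. Higher expression in the Apatinib group was found for 973 genes (5.97%), and lower expression for 893 (5.48%). Of the 9 listed genes, 7 were tested and 1, MT1F, was called, as higher. A share of 1 of 7 is close to the background of 11.5% for all genes. The median log2 fold change of the 7 was -0.046, and that of all genes tested was 0.00284. The CPM of the groups did not overlap for 2 of the 7, MT1F and MT1X, beside 33.2% of all genes tested. The metallothionein and zinc genes thus did not stand out from the transcriptome as a list. In these bulk samples, fewer cells expressing a gene and less RNA per cell cannot be told apart.

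**Figure D1:**
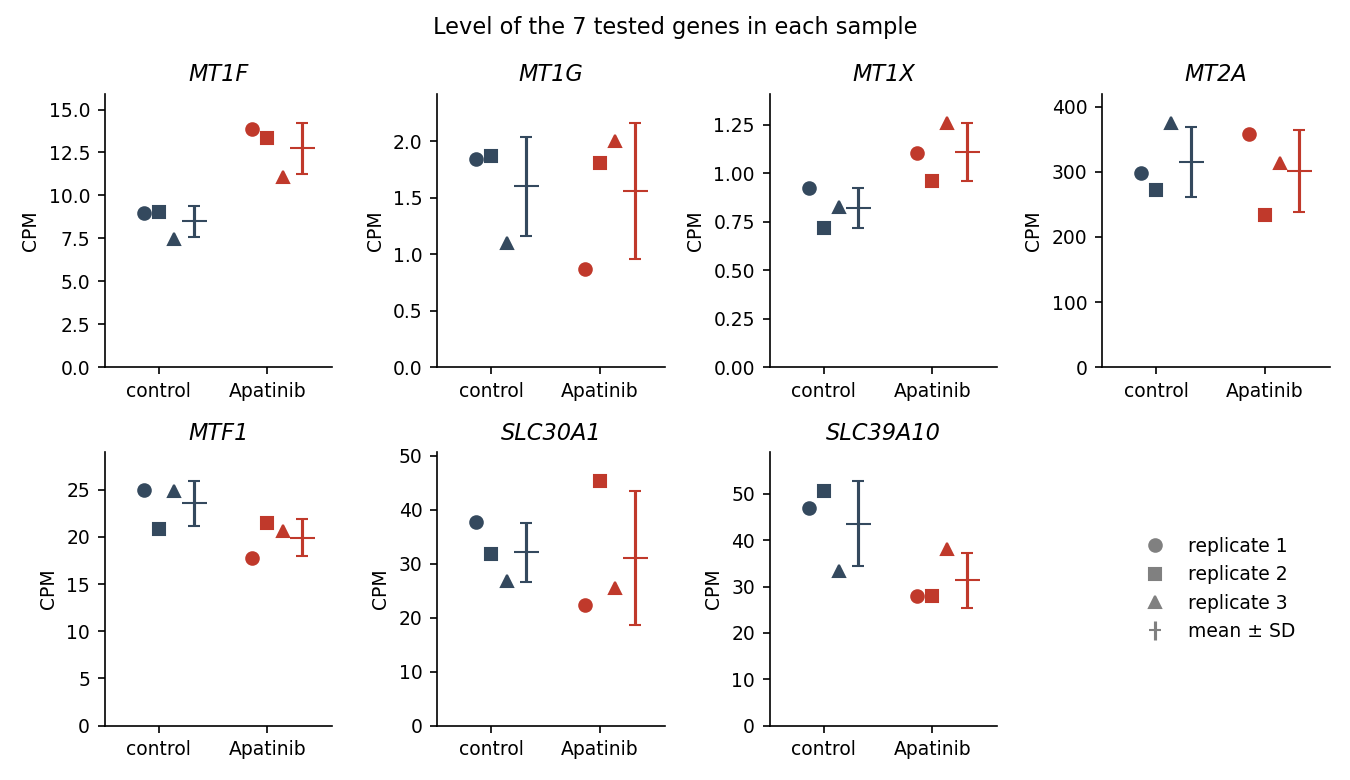
CPM of the 7 tested genes (vertical axes, each starting at 0) in the control group and the Apatinib group, with 1 symbol per replicate and the mean ± SD beside them. The groups are apart for MT1F and MT1X and overlap for MT2A, MT1G, MTF1, SLC30A1 and SLC39A10.

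MT2A, the most highly expressed human metallothionein in most cells, led the family here. Its counts were 6161, 4138 and 5461 in Apatinib 1, 2 and 3, and 5164, 4936 and 8186 in control 1, 2 and 3. Scaled for depth, these were 358, 234 and 313 CPM against 298, 271 and 375 CPM. The lowest value was in Apatinib 2 and the highest in control 3, and the groups overlapped. The log2 fold change was -0.06 (95% interval -0.44 to 0.31, edgeR FDR = 0.842). Its sign turned to 0.10 without Apatinib replicate 2 and to 0.08 without control replicate 3. A change of MT2A beyond the spread between replicates was not detected, and the interval leaves room for a rise or a fall of moderate size.

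RefSeq windows, from 250 bases before to 50 bases after a gene's start, were matched for 5 of the 9 genes (6 windows, GRCh38.p14): MT1X, MT2A, MTF1, SLC30A1 and SLC39A10. No window was matched for MT1E, MT1F, MT1G and MT1M. The windows were searched on both strands for the core of the metal response element, TGCACNC or TGCGCNC, where N is any base. MT2A held 8 matches, MT1X 4, SLC30A1 2, the windows of SLC39A10 0 and 1, and MTF1 0. Of 35116 RefSeq windows of 300 bases, 29.6% held at least 1 match, 8.6% held at least 2 and 0.601% held at least 4. The MT2A and MT1X windows are therefore rich in these letters. A match is a description of the sequence and not a measured binding site.

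Stretches of the windows that hold matches are shown for the genes that zinc-loaded MTF1 is known to act on, with the matches in capitals, each read 5′ to 3′ on the gene's strand. The MT1X stretch (chr16:56682320-56682423, plus strand) ends 47 bases before the RefSeq start. The MT2A stretches (chr16:56608424-56608453, chr16:56608484-56608513 and chr16:56608518-56608547, plus strand) hold 30 bases each, since GENCODE 29 draws a longer first exon there. The SLC30A1 stretch (chr1:211579162-211579311, minus strand) covers the 150 bases before its start.
MT1X: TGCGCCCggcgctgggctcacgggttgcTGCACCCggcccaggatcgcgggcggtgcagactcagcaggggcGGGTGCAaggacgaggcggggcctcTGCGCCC
MT2A, stretch 1: agccgggTGCGCCCggcccagTGCGCGCgg
MT2A, stretch 2: tcagcgcggggcGTGTGCAggcagcgcccg
MT2A, stretch 3: gggcggggctttTGCACTCgtcccggctct
SLC30A1: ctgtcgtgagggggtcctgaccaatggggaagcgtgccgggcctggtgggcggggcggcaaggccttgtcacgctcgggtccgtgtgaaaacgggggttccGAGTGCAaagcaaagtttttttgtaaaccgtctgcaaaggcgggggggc
The 4 matches of MT1X lie within 150 bases of its RefSeq start, and 7 of the 8 matches of MT2A lie before its RefSeq start, whereas SLC30A1 has 1 match before its RefSeq start, at 49 bases. The outermost starts in GENCODE 29 differ, with all 8 matches of MT2A inside the gene and both matches of SLC30A1 before it. None of the 5 genes with a window was called, and MT1F, which was called, had no window. Matches and calls can therefore not be compared here.

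MT1F encodes another of the MT1 isoforms. Its counts were 238, 236 and 193 in Apatinib 1, 2 and 3, and 156, 164 and 163 in control 1, 2 and 3. In CPM, these were 13.8, 13.3 and 11.1 against 9.01, 9.02 and 7.47. Every Apatinib sample was higher than every control sample. MT1F rose from 8.50 ± 0.892 to 12.7 ± 1.49 CPM (mean ± SD, n = 3), a log2 fold change of 0.59 (95% interval 0.22 to 0.95, edgeR FDR = 0.0416). The deposited FPKM (fragments scaled by transcript length and depth) were 13.4, 14.1 and 11.7 against 9.57, 8.99 and 7.38, and separated the groups as well. The call was close to the threshold. With each sample left out in turn it was kept in 1 of 6 fits, that without Apatinib replicate 3, with edgeR FDR from 0.0369 to 0.134 and a log2 fold change from 0.50 to 0.68. The summed-control FDR was 0.126, and MT1F was not called with a replicate block (edgeR FDR = 0.0604). DESeq2 (DESeq2 adjusted p = 0.0284) and limma on log2(FPKM + 1) (limma FDR = 0.0462) called it.

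MT1X was the second most abundant metallothionein in FPKM but not in counts. Its FPKM were 52.2, 47.3 and 44.2 in Apatinib 1, 2 and 3, and 53.6, 39.5 and 46.6 in control 1, 2 and 3. Its counts were only 19, 17 and 22 against 16, 13 and 18. In FPKM the groups overlapped, whereas in CPM (1.11, 0.960 and 1.26 against 0.924, 0.715 and 0.825) every Apatinib sample was higher. The log2 fold change was 0.43 from the counts (95% interval -0.29 to 1.15, edgeR FDR = 0.404) and 0.05 from log2(FPKM + 1) (limma FDR = 0.85). No change of MT1X was detected in either unit, and the counts were few.

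The disagreement between both units for MT1X was large. It had 0.37 counts per FPKM unit, whereas MT2A had 19.9, MT1F 17.7 and MT1G 9.74, and the median of 13332 tested genes with a mean of at least 1 FPKM was 62.1. Only 14 of these genes (0.105%) were lower than MT1X. In GENCODE 29 (GRCh38), the noncoding gene AC026461.1 starts on the same strand inside MT1X, shares 321 of the 1773 exon bases of MT1X (18.1%), and spans 97.4% of them with its gene body. Of the 100-base stretches in the longest coding transcript of MT1X, 50.8% also occur in AC026461.1, whereas none of MT1F, MT2A or MT1G occur in another gene. Of the 50-base stretches, 14.3% of MT1G, 4.88% of MT2A and 3.59% of MT1F also occur in other metallothionein genes or pseudogenes. Whether reads were shared between these genes was not tested. The row of AC026461.1, named RP11-343H19.2 in the matrix, had 0 counts and 0 FPKM in all 6 samples. How the authors counted reads in overlapping genes is not given in the sources used here, and the part of the overlap was not tested. The MT1X counts are therefore uncertain as a measure of its level.

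**Figure D2:**
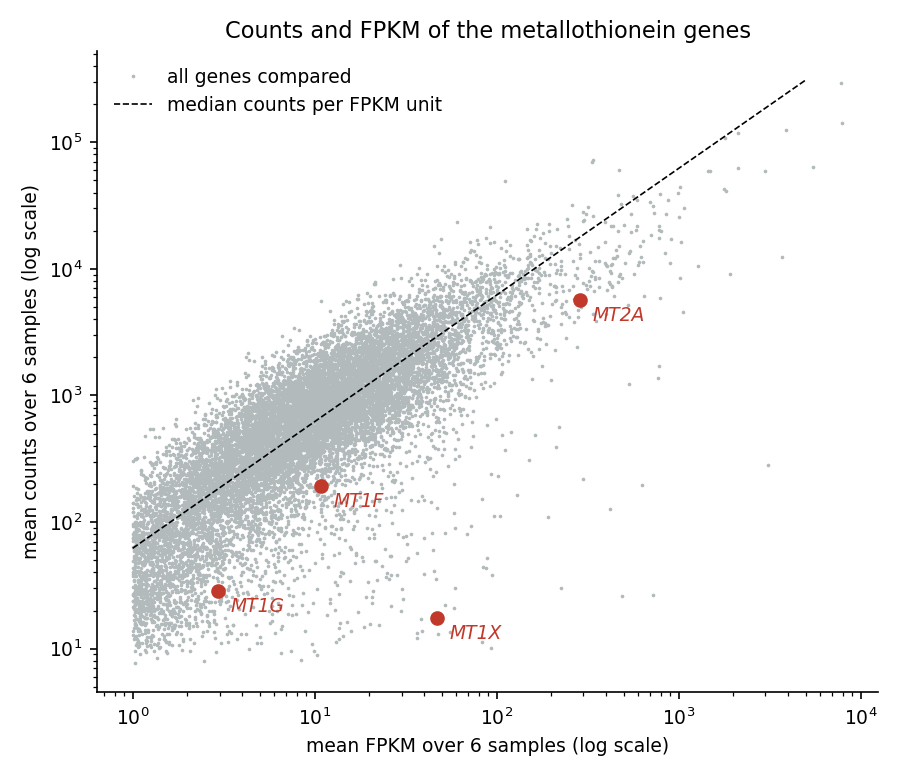
Mean counts against mean FPKM over the 6 samples (both log scales) for 13332 tested genes in grey, with 4 metallothionein genes in red and the median of 62.1 counts per FPKM unit as a dashed line. MT1X lies far below the line, at 17.5 counts and 47.2 FPKM.

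MT1G, an isoform that is silenced in several tumors, was low. Its counts were 15, 32 and 35 in Apatinib 1, 2 and 3, and 32, 34 and 24 in control 1, 2 and 3. Apatinib 1 and control 3 were the low samples, so that each group held its own low sample and the groups overlapped. The log2 fold change was -0.03 (95% interval -0.82 to 0.77, edgeR FDR = 0.969), an interval too wide to show a change of moderate size. MT1E had 3, 3 and 0 counts in the Apatinib group against 2, 2 and 0 in the control group. MT1M had 0 counts in all 6 samples, which allows at most 0.137 to 0.175 CPM (3 counts, counting error only). Neither was tested. The other 14 genes and pseudogenes of the family in the matrix had at most 2 counts in a sample and were not tested either. SW872 therefore expressed MT2A, MT1X, MT1F and MT1G at a level above this floor.

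Compared per transcript length, the order of the levels was MT2A (mean FPKM over the 6 samples 285.6), MT1X (47.2), MT1F (10.9) and MT1G (2.94). The lowest value of each was above the highest value of the next in all samples. Of the other 3 genes, SLC39A10 had a mean of 6.01 FPKM, SLC30A1 4.05 and MTF1 1.92. The ranges of SLC39A10 (4.28 to 8.21) and SLC30A1 (2.69 to 6.05) overlapped, and so did those of MT1G (1.504 to 3.79) and MTF1 (1.53 to 2.25).

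The summed counts of the 6 metallothionein genes were 6436, 4426 and 5711 in Apatinib 1, 2 and 3, and 5370, 5149 and 8391 in control 1, 2 and 3. The sum followed MT2A, with Apatinib 2 lowest and control 3 highest. The sum was not called (log2 fold change -0.04, edgeR FDR = 0.898), and its sign turned to 0.11 without Apatinib replicate 2 and to 0.10 without control replicate 3. MT2A held 95.7%, 93.5% and 95.6% of the summed counts in the Apatinib group against 96.2%, 95.9% and 97.6% in the control group. MT1F held 3.70%, 5.33% and 3.38% against 2.91%, 3.19% and 1.94%. The share of MT1F was higher in every Apatinib sample. That of MT2A was lower in every one, which is largely the same difference, since the shares of a sample sum to its whole. For both, the exact two-sided permutation test gave p = 0.1, the smallest value that 3 against 3 samples allow, and p = 0.25 adjusted over 5 genes. In FPKM the shares of MT2A overlapped (82.5%, 77.7% and 83.3% against 81.1%, 82.7% and 85.8%, exact two-sided permutation p = 0.5), whereas the share of MT1F was again higher in every Apatinib sample (exact permutation p = 0.1, and 0.5 adjusted over 5 genes). In this unit, MT2A held 81.2 ± 3.04% in the Apatinib group against 83.2 ± 2.36% in the control group, MT1X 14.1 ± 1.97% and 13.4 ± 1.67%, and MT1F 3.87 ± 0.857% and 2.52 ± 0.576% (mean ± SD, n = 3). MT2A thus made up most of the pool in both groups and in both units.

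MTF1, the zinc sensor, had 305, 380 and 360 counts in Apatinib 1, 2 and 3, and 432, 379 and 543 in control 1, 2 and 3. In CPM, these were 17.7, 21.5 and 20.6 against 24.9, 20.8 and 24.9. Apatinib 1 was lowest, and Apatinib 2 lay above control 2, so the groups overlapped. MTF1 was not called (log2 fold change -0.24, 95% interval -0.55 to 0.07, edgeR FDR = 0.281).

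SLC30A1, the exporter that MTF1 is known to activate, had 385, 802 and 445 counts in Apatinib 1, 2 and 3, and 654, 577 and 585 in control 1, 2 and 3. Its CPM were 22.4, 45.3 and 25.5 against 37.8, 31.7 and 26.8. Apatinib 2 was the highest of all samples, while Apatinib 1 and Apatinib 3 lay below all control samples. MT2A ran the other way in this group, with its lowest value in Apatinib 2. SLC30A1 was not called (log2 fold change -0.05, 95% interval -0.57 to 0.47, edgeR FDR = 0.918). The estimate was -0.41 without Apatinib replicate 2 and turned to 0.15 without Apatinib replicate 1, to 0.08 without Apatinib replicate 3 and to 0.08 without control replicate 1. The estimate for SLC30A1 thus rested on single samples.

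SLC39A10, the importer, had 480, 495 and 665 counts in Apatinib 1, 2 and 3, and 812, 920 and 727 in control 1, 2 and 3. In CPM, these were 27.9, 27.9 and 38.1 against 46.9, 50.6 and 33.3. Apatinib 1 and Apatinib 2 lay below all control samples, and Apatinib 3 lay above control 3. SLC39A10 was not called (log2 fold change -0.48, 95% interval -0.87 to -0.08, edgeR FDR = 0.103). Without control replicate 3, it was -0.64 and passed (edgeR FDR = 0.02), with edgeR FDR up to 0.367 over the other samples left out.

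**Figure D3:**
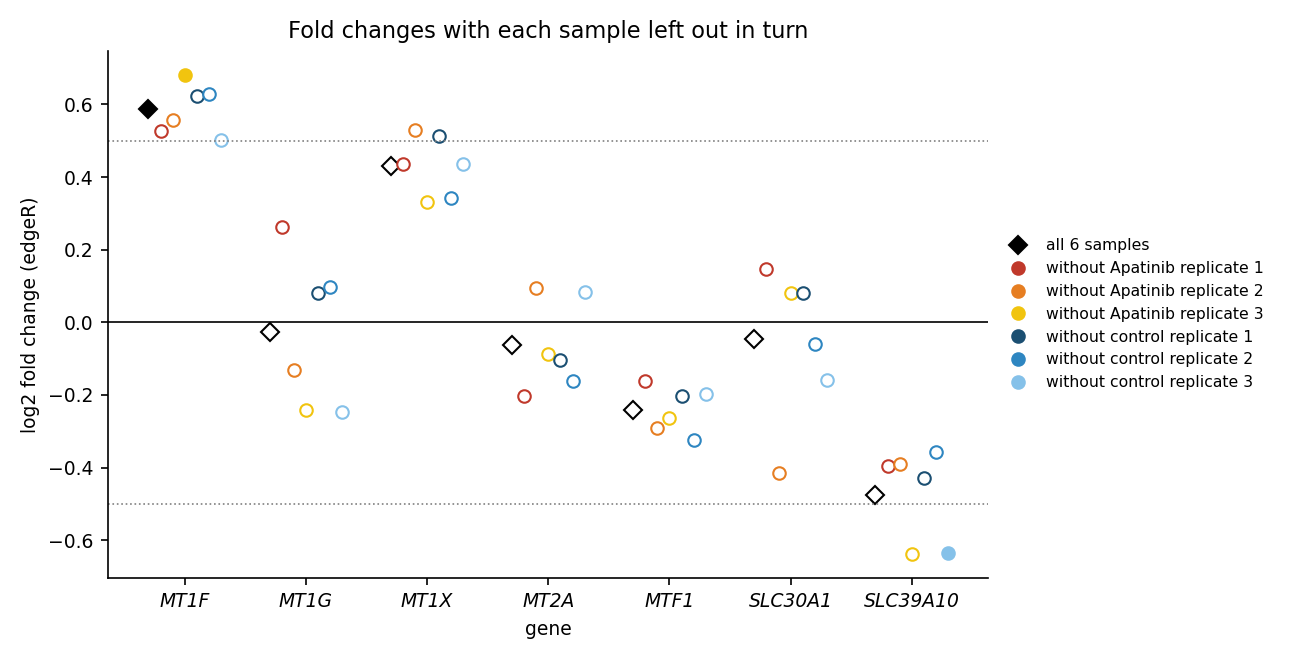
Log2 fold change (vertical axis, edgeR) of the 7 tested genes with all 6 samples (diamonds) and with each sample left out in turn (circles), filled where the gene was called, with dotted lines at 0.5 and -0.5. MT1F stays between 0.50 and 0.68, MT1G, MT2A and SLC30A1 lie on both sides of 0, and MTF1 and SLC39A10 stay below 0.

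The other zinc transporters were compared next. The SLC30 family carries zinc out of the cytosol and the SLC39 family carries it in, and 17 of the 22 other members were tested. By edgeR 0 of 17 were called, beside 11.5% of all genes, and 7 had an unadjusted p under 0.05, beside 30.6% of all genes. DESeq2 called 1 (SLC39A14), beside 2054 over all genes, and limma on log2(FPKM + 1) called 0, beside 796. The median log2 fold change was -0.22 for 7 exporters, with 1 above 0 and 6 below, and 0.13 for 10 importers, with 7 above 0 and 3 below. Groups did not overlap for 6 of the 17, beside 33.2% of all genes.

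**Figure D4:**
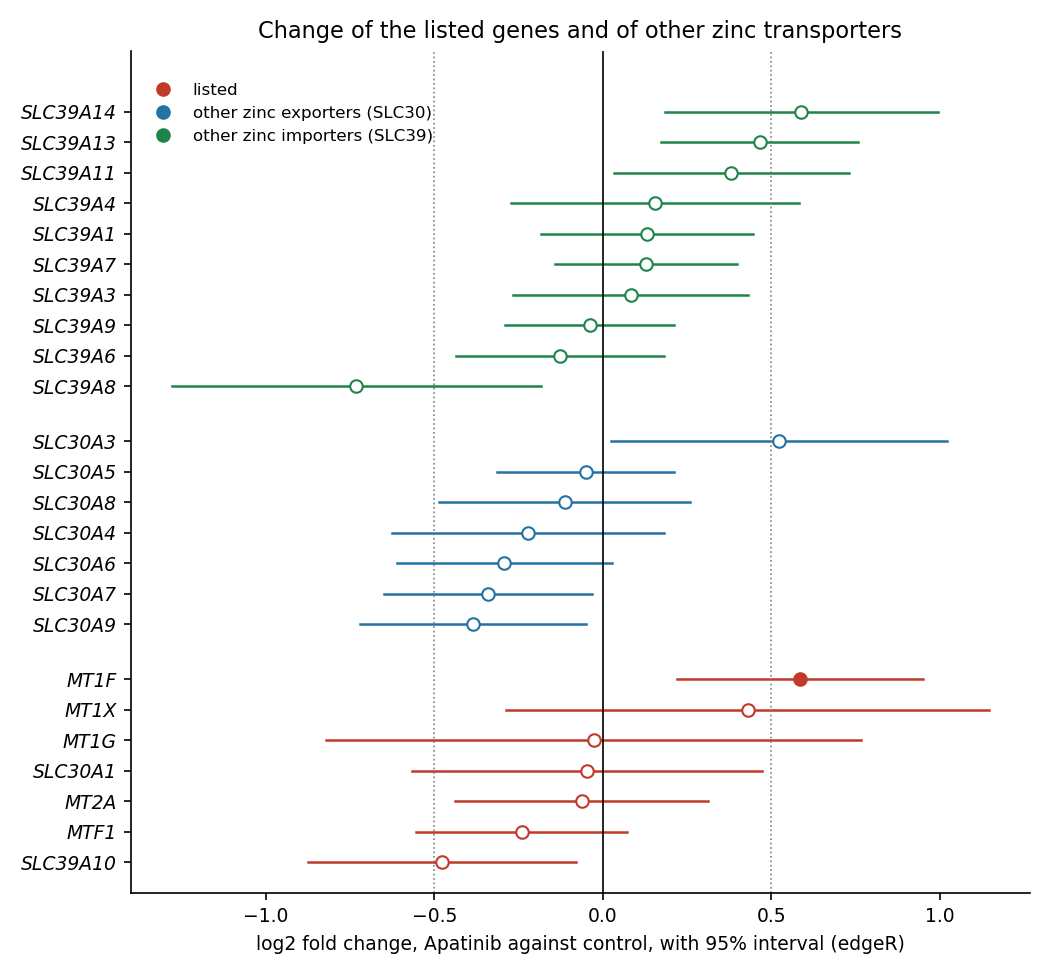
Log2 fold change in the Apatinib group against the control group (horizontal axis, points) with its 95% interval (lines) for the 7 tested listed genes and 17 other zinc transporters, with dotted lines at 0.5 and -0.5. MT1F is the only filled point, which marks a call.

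Among the importers, SLC39A14, which also carries iron and manganese, had 198, 323 and 188 CPM in Apatinib 1, 2 and 3, and 158, 162 and 151 CPM in control 1, 2 and 3. Every Apatinib sample was higher than every control sample, and Apatinib 2 was far above the rest. By edgeR it was not called (log2 fold change 0.59, edgeR FDR = 0.0571), whereas DESeq2 called it (DESeq2 adjusted p = 0.0142). Without Apatinib replicate 2, its log2 fold change was 0.30 (edgeR FDR = 0.0809). SLC39A14 was called without Apatinib replicate 3 (log2 fold change 0.73, edgeR FDR = 0.0368). The same held with no filter beyond a total of 1 count (edgeR FDR = 0.00104). SLC39A7 lies in the endoplasmic reticulum and Golgi and carries zinc from them into the cytosol. SLC39A7 was at 162 ± 16.1 CPM and 149 ± 11.9 CPM in the Apatinib and control groups, and SLC39A9 was at 127 ± 6.62 CPM and 130.7 ± 8.71 CPM (mean ± SD, n = 3). Neither was called (edgeR FDR = 0.521 and 0.855). SLC39A13 and SLC39A8 were picked after their values were seen. SLC39A13 had an edgeR FDR of 0.0426 but a log2 fold change of 0.47, below the limit of 0.5, and it was called without Apatinib replicate 2 and without control replicate 3. SLC39A8 had 45, 50 and 86 counts against 108, 100 and 120, lower in all Apatinib samples but not called (log2 fold change -0.73, edgeR FDR = 0.0745), and was called without Apatinib replicate 3.

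Among the exporters, SLC30A5, SLC30A6 and SLC30A9 were the most abundant. Their log2 fold changes were -0.05, -0.29 and -0.38 (edgeR FDR = 0.813, 0.2 and 0.116), and SLC30A9 was called without Apatinib replicate 3. The exporter SLC30A8, best known from the insulin granules of pancreatic beta cells and chosen after its values were seen, had 502, 781 and 531 counts in the Apatinib group against 698, 709 and 719 in the control group. This gene was thus well detected in the liposarcoma line and was not called (log2 fold change -0.11, edgeR FDR = 0.696).

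The 6 metallothionein genes lie within 76 kb of chromosome 16 (GENCODE 29, GRCh38), from MT2A (chr16:56608199-56609497, plus strand) to MT1X (chr16:56682424-56684196, plus strand). MT1F lies between them (chr16:56657694-56660698, plus strand). Of 6 neighbors of this cluster, 2 were called in opposite directions, beside 11.5% of all genes, and the groups did not overlap for 4, beside 33.2%. NUDT21, a subunit of the cleavage factor that chooses polyadenylation sites, had 126, 112 and 150 CPM in Apatinib 1, 2 and 3, and 202, 190 and 174 CPM in control 1, 2 and 3. All Apatinib samples were lower (log2 fold change -0.55, edgeR FDR = 0.0269, summed-control FDR = 0.122). HERPUD1, a gene of the endoplasmic reticulum stress response, had 149, 179 and 126 CPM against 95.1, 89.6 and 106 CPM, and was higher in all Apatinib samples (log2 fold change 0.64, edgeR FDR = 0.0188, summed-control FDR = 0.0978). NUP93, a nuclear pore gene, was not called (log2 fold change -0.08, edgeR FDR = 0.705).

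Genes for other metals were described in the same way. Metallothioneins also bind copper, and of 11 tested copper genes edgeR, DESeq2 and limma on log2(FPKM + 1) each called 0. Over all genes, edgeR called 11.5%, DESeq2 2054 genes and limma 796 genes. By edgeR 1 of the 11 had an unadjusted p under 0.05, beside 30.6% of all genes. SOD1, the copper- and zinc-binding superoxide dismutase, SLC31A1, the copper importer, and COX11, a copper chaperone, were the most abundant, with log2 fold changes of -0.15, 0.30 and -0.29 (edgeR FDR = 0.495, 0.123 and 0.168). The value of SOD1 was -0.25 without Apatinib replicate 1 and -0.02 without Apatinib replicate 2. Of 14 tested iron genes, 4 were called, beside 11.5% of all genes, and the groups did not overlap for 7, beside 33.2%. TFRC, the transferrin receptor that takes up iron, fell from 248 ± 3.93 to 142 ± 47.6 CPM (mean ± SD, n = 3, log2 fold change -0.80, edgeR FDR = 0.03, summed-control FDR = 0.0996). Its Apatinib samples were at 151, 91.3 and 185 CPM, all below the control samples, with Apatinib 2 lowest. IREB2, an iron-responsive regulator of such transcripts, fell from 142 ± 18.7 to 93.1 ± 14.9 CPM (log2 fold change -0.61, edgeR FDR = 0.0262, summed-control FDR = 0.122). FTL, the ferritin light chain that stores iron, rose from 1818 ± 247 to 2741 ± 604 CPM (log2 fold change 0.59, edgeR FDR = 0.0423, summed-control FDR = 0.178), and HMOX1, which releases iron from heme, from 12.96 ± 1.82 to 20.9 ± 5.46 CPM (log2 fold change 0.69, edgeR FDR = 0.0423, summed-control FDR = 0.142). FTH1, the ferritin heavy chain, was not called by edgeR (log2 fold change 0.51, edgeR FDR = 0.121), and limma on log2(FPKM + 1) called it (limma FDR = 0.0345). Its log2 fold change was 0.25 without Apatinib replicate 1 (edgeR FDR = 0.406) and 0.68 without control replicate 3, where it was called (edgeR FDR = 0.0436). It was also called with no filter beyond a total of 1 count (edgeR FDR = 0.006). Ferritin genes have many pseudogene copies that can share reads, so their counts are uncertain, and the part of these copies was not tested.

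Metallothionein genes are also known targets of glucocorticoids. Of 9 tested glucocorticoid response genes, 2 were called in opposite directions, beside 11.5% of all genes, and the groups did not overlap for 6, beside 33.2%. An unadjusted p under 0.05 was found for 5 of the 9, beside 30.6%. TSC22D3 had 121, 202 and 87.1 CPM in Apatinib 1, 2 and 3, and 85.1, 68.0 and 77.4 CPM in control 1, 2 and 3. Apatinib 2 was far above the others, and Apatinib 3 was just above control 1 (log2 fold change 0.83, edgeR FDR = 0.0463, summed-control FDR = 0.135). Without Apatinib replicate 2, its log2 fold change was 0.44 and it was not called (edgeR FDR = 0.0893). ANGPTL4, a secreted inhibitor of lipoprotein lipase, had 22, 27 and 18 counts against 48, 41 and 63, and was lower in all Apatinib samples (log2 fold change -1.04, edgeR FDR = 0.0313, summed-control FDR = 0.0891). The receptor gene NR3C1 and the abundant targets SGK1 and FKBP5 were not called (log2 fold change -0.27, 0.21 and -0.27, edgeR FDR = 0.313, 0.222 and 0.132). The value of NR3C1 was -0.11 without Apatinib replicate 1 and -0.45 without Apatinib replicate 2 (edgeR FDR = 0.0665 for the latter). With control 1 and control 2 summed, 1 of the 13 genes named as called (COL3A1) kept its call. With Apatinib 1, 2 or 3 left out, 2, 9 and 9 of the 13 kept their call, and with control 1, 2 or 3 left out, 0, 1 and 10 did. All 13 kept their direction in each of these fits.

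The genes whose log2 CPM was most like the mean of the 4 tested metallothioneins over the 6 samples, of 10327 other genes with a mean of at least 10 CPM, were CD163L1 (Pearson r = 0.988), RPL22L1 (0.981), MEIOB (0.967), LRRC17 (0.966) and SSR3 (0.965). The r values are descriptive, since the genes were taken as the highest of all those searched, and the samples share their groups and depth. The mean log2 CPM of the metallothioneins was 3.14, 3.16 and 3.33 in the Apatinib group against 3.11, 2.995 and 2.91 in the control group. This mean gives the few MT1G counts and the few and uncertain MT1X counts the same weight as the other genes. The order of the samples and the r values thus rest on MT1G and MT1X as well. The mean does not follow MT2A, which made up most of the family's counts: control 3 was the highest sample for MT2A and the lowest for this mean and for each of the 5 genes. None of the 5 genes was called (edgeR FDR from 0.0674 to 0.34).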

How the data were processed

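RNA from SW872 cells was sequenced on an Illumina NovaSeq in 3 Apatinib and 3 control samples, called biological replicates by the study. The submitters' processing notes name CASAVA, STAR 2.7.1a and the hg19 build. The authors deposited raw read counts per gene for all samples and an FPKM table per sample. The programs behind the counts and the FPKM values deposited by the authors, and the strand setting, are not given in the sources used here. In the FPKM tables, 1 further column named for a sample was not used.

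The main test was edgeR 4.0.16 (quasi-likelihood F test, filterByExpr, TMM) in R 4.3.3 over 16290 genes, with Benjamini-Hochberg adjustment. DESeq2 1.42.0 and limma 3.58.1 on log2(FPKM + 1) or log2(FPKM + 0.1), for genes with a mean above 0.5 FPKM, were alternatives, with other filters and size factors, a replicate block, each sample left out, and controls 1 and 2 summed. The fits were tested on simulated counts of independent replicates, with the same spread for every gene. This does not cover samples as alike as control 1 and control 2. CPM are edgeR's counts scaled to the TMM-corrected totals. Shares were compared by exact permutation.

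The members and lists were chosen with earlier results of these data known. Named were all 9 genes, and of each list the genes called and up to 3 of the most abundant tested. The 5 genes most like the mean log2 CPM of the 4 tested metallothioneins were named as well. PECAM1, a further endothelial marker, was not analysed here. Promoter windows came from RefSeq (GRCh38.p14) and gene models from GENCODE 29 (GRCh38), not the build of the files, so no coordinates were transferred.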

Additional observations from a re-analysis of the deposited data

How the results depend on the processing

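The count of DEGs over all genes was 1866 and ranged from 275 (without control replicate 1) to 2594 (without control replicate 3) with each sample left out. It was 292 with controls 1 and 2 summed, 796 with limma on log2(FPKM + 1) and 810 on log2(FPKM + 0.1), where the cause was not tested. Of the 9 listed genes, 1 was called, and 0 to 1 with each sample left out, 0 with controls 1 and 2 summed. Of the other zinc transporters, 0 were called, and 0 to 3 with each sample left out (3 without Apatinib replicate 3). With DESeq2 1 was called, with no filter beyond a total of 1 count 2, and by FDR alone 1 (SLC39A13). Over all genes, 2030 were called without Apatinib replicate 3, 2054 with DESeq2, 2559 with no such filter and 2102 by FDR alone. The log2 fold change of the summed metallothionein counts ranged from -0.17 to 0.11 with each sample left out.

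The correlations of same-numbered deviations from the group mean were -0.259, 0.0808 and -0.22 for replicates 1, 2 and 3. They cannot decide whether the replicate numbers pair the samples. The deviations of 3 samples sum to 0 in each group, and control 1 and control 2 were nearly alike. With a replicate block, 2215 genes were called, 0 of the 9 listed genes (MT1F, edgeR FDR = 0.0604) and 2 zinc transporters (SLC39A8 and SLC39A14).

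Signs turned with a sample left out for MT1G (log2 fold change -0.25 to 0.26), MT2A (-0.20 to 0.10), SLC30A1 (-0.41 to 0.15), NUP93 (-0.1813 to 0.0062) and SLC39A9 (-0.0708 to 0.0203), and with controls 1 and 2 summed for MT1G (0.047) and SLC30A1 (0.0076). The difference in share of the summed counts (Apatinib minus control, percentage points) ranged from -0.00206 to 0.0318 for MT1E and from -0.105 to 0.154 for MT1G. The causes were not tested. The share of MT1F (0.861 to 1.84) and of MT2A (-1.97 to -0.853) kept their sign. All 13 called genes named kept their direction wherever they were fitted. They kept their calls in 13 of 13 with DESeq2, RLE size factors or no filter, and in 3 and 2 of 11 with limma on log2(FPKM + 1) and log2(FPKM + 0.1). Counts of MT1E, MT1M, MT1X and MT1G were too low for a change of moderate size to be detected.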

Other observations

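SLC30A2, a zinc exporter known from secretory cells, had 7, 32 and 8 counts in Apatinib 1, 2 and 3, and 5, 4 and 10 in control 1, 2 and 3, too few to be tested. Its high sample, Apatinib 2, was also the highest for SLC30A1, SLC39A14 and TSC22D3 and the lowest for MT2A and TFRC. The gene was chosen after its values were seen, and the part of this library in the results was not tested.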
